A study of Cyprinus carpio with 6 samples.

Results

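COX1, COX2 and COX3 (cytochrome c oxidase, complex IV), CYTB (the cytochrome bc1 complex, complex III) and ATP6 and ATP8 (ATP synthase, complex V) are the 6 protein-coding genes of the carp mitochondrial genome that belong to respiratory complexes III, IV and V. They were taken by gene identifier: KEF38_p11 for COX1, KEF38_p10 for COX2, KEF38_p07 for COX3, KEF38_p01 for CYTB, KEF38_p08 for ATP6 and KEF38_p09 for ATP8. They make up 6 of the 13 protein-coding mitochondrial genes and 6 of the 40568 features with a count. The other 7 mitochondrial genes, ND1 to ND6 and ND4L, encode subunits of complex I. RNA-Seq was performed on whole common carp (Cyprinus carpio) embryos at mid-blastula in 6 libraries. In 3 of them the embryos derived from sperm kept in vitro on ice for 14 days (14-day-aged sperm), and in the other 3 from fresh sperm. Both kinds of sperm came from the same males, and all oocytes came from 1 female. No source used here ties a library to a male or says that the libraries are separate matings, and a p-value here reflects only how far the libraries scatter, which may be technical. The question addressed was whether storage of sperm is accompanied by a different level or balance of these transcripts in the resulting embryos.

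Vertebrate mitochondrial DNA is transcribed as long precursors covering many genes, which are cut at the transfer RNAs between them into single messages and polyadenylated. ATP8 and ATP6 overlap and are known to share 1 messenger RNA. COX1, COX2 and COX3 form the catalytic core of the enzyme that passes electrons to oxygen, CYTB is the only mitochondrially encoded subunit of complex III, and ATP6 and ATP8 are subunits of the membrane part of ATP synthase. In fish, mitochondria are inherited from the mother, and the egg supplies a large stock of them and of their RNA to the early embryo.

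On the mitochondrial sequence of assembly ASM1834038v1, as a RefSeq gene table gives it, the genes lie in the order COX1 (6399 to 7949), COX2 (8109 to 8799), ATP8 (8877 to 9041), ATP6 (9035 to 9718), COX3 (9718 to 10503) and, after a run of ND genes, CYTB (15293 to 16433). ATP8 and ATP6 share 7 bases, and ATP6 and COX3 share 1 base. The strand used in counting was not given in the sources used here, so reads from overlapping ends or from the opposite strand cannot be told apart.

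Total estimated counts were 15632387, 15291251 and 14993459 in libraries 1, 2 and 3 from 14-day-aged sperm, and 15102045, 15149695 and 15185710 in libraries 1, 2 and 3 from fresh sperm. The libraries numbered 3 stood apart from the other 4 on the first principal component of log2 CPM (counts scaled to library size), which carried 22.9% of the variance. Their scores were 53.2 from 14-day-aged sperm and 44.0 from fresh sperm, against -26.8 and -15.2 in libraries 1 and 2 from 14-day-aged sperm and -26.7 and -28.6 in those from fresh sperm. Of 20 blastula or maternal symbols, 10 had a count, nanog, pou5f3, ccnb1 and ccna1 among them, with a summed level of 5682 to 6174 CPM after storage and 5744 to 6232 CPM with fresh sperm. Of 10 sperm symbols 6 had a count, summing to 30.3 to 32.9 CPM after storage and 28.1 to 32.7 CPM with fresh sperm, nearly all of it odf2a. Of 16 symbols of later organs 3 had a count, summing to 0.131 to 0.320 CPM after storage and 0.132 CPM with fresh sperm. Because 24674 annotated genes carry only LOC symbols, a marker with no count under its own symbol is not shown to be absent.

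COX1, COX3 and CYTB were 1.28 to 1.30 times as abundant in embryos from 14-day-aged sperm as in embryos from fresh sperm. Differences were smaller for COX2 and ATP6, and ATP8 was at 1.41 times on only 10 to 23 counts a library. However, none of the 6 transcripts differed beyond the spread between libraries. Values are given first as FPKM, the authors' counts divided by effective length (the positions in a transcript where a read fragment can start) and by the library total.

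COX1, the subunit that holds the site of oxygen reduction, was at 5752, 5395 and 7510 FPKM in libraries 1, 2 and 3 from 14-day-aged sperm, against 3919, 4475 and 5820 FPKM in those from fresh sperm. The mean was 6219 ± 1133 FPKM with 14-day-aged sperm and 4738 ± 978 FPKM with fresh sperm (SD, n = 3 each). Library 3 was the highest of each group, and the highest library from fresh sperm lay above both lower libraries from 14-day-aged sperm.

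COX2, which takes up the electrons from cytochrome c, was at 5835, 5802 and 8177 FPKM with 14-day-aged sperm, against 5041, 5881 and 6920 FPKM with fresh sperm. The mean was 6604 ± 1362 FPKM after storage and 5947 ± 941 FPKM with fresh sperm, the smallest ratio of means among the 5 transcripts with an FPKM. Both lower libraries from 14-day-aged sperm lay below the middle one from fresh sperm.

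COX3, the remaining core subunit of complex IV encoded in mitochondria, was at 6443, 5532 and 7804 FPKM with 14-day-aged sperm, against 4442, 5244 and 5671 FPKM with fresh sperm. It averaged 6593 ± 1143 FPKM after storage and 5119 ± 624 FPKM with fresh sperm. Only library 2 from 14-day-aged sperm lay within the range of fresh sperm.

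CYTB, whose protein carries electrons from ubiquinol through complex III, was at 1957, 1737 and 2555 FPKM with 14-day-aged sperm, against 1301, 1534 and 2001 FPKM with fresh sperm. The means were 2083 ± 423 FPKM after storage and 1612 ± 356 FPKM with fresh sperm. As for COX1, library 3 from fresh sperm exceeded libraries 1 and 2 from 14-day-aged sperm.

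ATP6, the subunit that forms the proton path of ATP synthase beside the turning ring, was at 2342, 2040 and 3268 FPKM with 14-day-aged sperm, against 1859, 1952 and 2537 FPKM with fresh sperm. It averaged 2550 ± 639 FPKM after storage and 2116 ± 367 FPKM with fresh sperm. The groups overlapped through library 3 from fresh sperm.

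ATP8, a short accessory subunit of the same membrane part, was listed at 0 FPKM in every library although reads were counted. Its estimated counts were 12, 15 and 23 with 14-day-aged sperm, against 13, 10 and 12 with fresh sperm. The listed effective length of ATP8 was 0, the gene being 165 bases long while gene length minus effective length for longer genes was 272 to 284 bases in libraries from 14-day-aged sperm and 268 to 280 bases in those from fresh sperm. The sums of 50 counts after storage and 35 counts with fresh sperm, scaled by total counts, gave a ratio of 1.41 (95% counting interval 0.900 to 2.24, which covers counting error only). Per base of gene length, ATP8 had 207 to 314 times fewer counts than ATP6 in the same library, with which it is known to share a message. With its effective length listed as 0, that comparison does not measure how much ATP8 RNA was present. With 10 to 23 ATP8 counts a library, a difference of the size seen for ATP8 was not detectable.

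**Figure D1:**
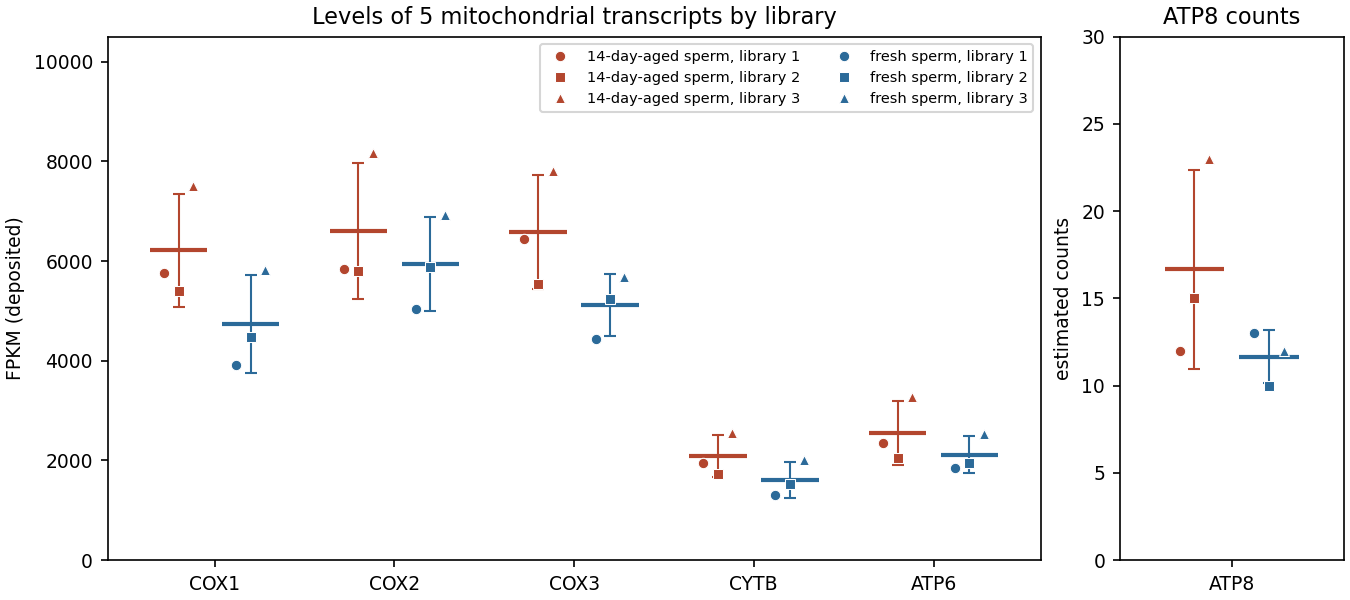
Deposited FPKM of COX1, COX2, COX3, CYTB and ATP6 (left) and estimated counts of ATP8 (right) in each library of embryos from 14-day-aged sperm (red) and fresh sperm (blue); horizontal bars are means and error bars SD (n = 3 each), and symbols give the library number. Library 3 is the highest of its group for the 5 transcripts on the left, and the groups overlap for all 6.

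The 6 genes were compared in edgeR's quasi-likelihood fit over all 27342 tested features, with adjustment over all of them. The log2 fold change with 14-day-aged over fresh sperm was 0.38 for COX1 (standard error 0.204), 0.14 for COX2 (0.190), 0.36 for COX3 (0.161), 0.36 for CYTB (0.211), 0.26 for ATP6 (0.212) and 0.49 for ATP8 (0.360). No gene of the 6 passed an adjusted p of 0.05 (edgeR, adjusted p = 0.9998 each), where 0.0146% of all tested features passed and 0.00731% passed with a higher level after storage. The lowest unadjusted p in this edgeR fit was 0.0622, for COX3, so that 0 of the 6 were higher at an unadjusted p under 0.05, against 1.46% of all tested features. The 95% intervals ran from -0.10 to 0.86 for COX1, from -0.30 to 0.59 for COX2, from -0.024 to 0.73 for COX3, from -0.14 to 0.86 for CYTB, from -0.24 to 0.76 for ATP6 and from -0.35 to 1.34 for ATP8, so that the data allow both no difference and an increase of more than 0.5 on the log2 scale in each. All 6 log2 fold changes were above 0, as were 49.7% of those of all tested features, and the 6 values come from the same libraries and 1 genome. The CPM of the 2 groups did not separate for any of the 6, whereas they separated for 8.56% of tested features. The log2 fold changes depended on which libraries were used, those numbered 3 among them. Without library 3 from 14-day-aged sperm they were 0.20 for COX1, -0.067 for COX2, 0.19 for COX3, 0.16 for CYTB, 0.012 for ATP6 and 0.16 for ATP8. Without library 3 from fresh sperm they were, in the same order, 0.58, 0.28, 0.45, 0.57, 0.43 and 0.53. Without both, an alternative added after seeing the data, they were 0.40, 0.072, 0.29, 0.37, 0.18 and 0.19. Other libraries mattered too. COX3 was at 0.47 without library 2 from 14-day-aged sperm, and ATP8 at 0.71 without library 1 from 14-day-aged sperm. COX2 was at 0.041 without library 1 from fresh sperm. CPM is relative to the library total. If levels differed, changes in mitochondria, in RNA per mitochondrion and in other RNA could not be told apart in whole embryos.

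**Figure D2:**
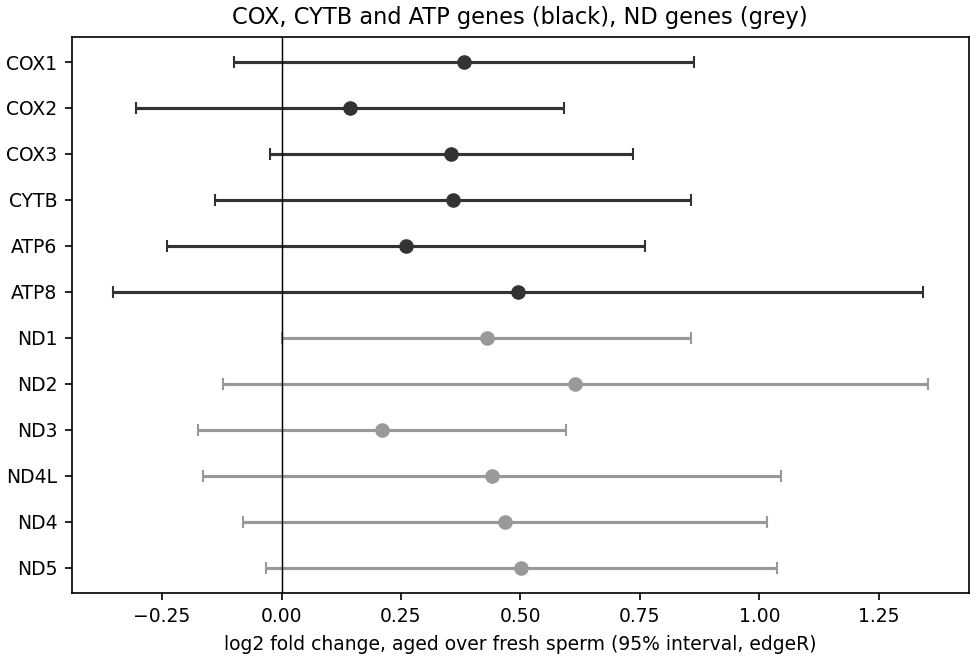
Log2 fold change (14-day-aged over fresh sperm, edgeR) of the 6 genes (black) and of the tested ND genes (grey); bars are 95% intervals. All 6 black points lie above 0, from 0.14 for COX2 to 0.49 for ATP8, and all 6 black intervals include 0.

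Summed, the 6 genes took 1.55, 1.45 and 2.06% of all counts in libraries from 14-day-aged sperm, against 1.14, 1.29 and 1.59% in libraries from fresh sperm. The mean was 1.69 ± 0.327% after storage and 1.34 ± 0.230% with fresh sperm (SD, n = 3 each), and the difference of 0.350 percentage points was within the spread (two-sided exact permutation test, p = 0.3). With 3 libraries against 3 this test cannot give a p below 0.1. This difference was 0.16 percentage points without library 3 from 14-day-aged sperm and 0.48 without library 3 from fresh sperm. Without both libraries numbered 3 it was 0.29. The 7 ND genes took 0.337, 0.347 and 0.507% of counts with 14-day-aged sperm and 0.233, 0.281 and 0.344% with fresh sperm, and the tested ND genes had log2 fold changes from 0.21 for ND3 to 0.61 for ND2. The counts of the 6 genes over those of the ND genes were 4.60, 4.18 and 4.06 with 14-day-aged sperm, against 4.89, 4.59 and 4.62 with fresh sperm (log2 difference -0.13, two-sided exact permutation test, p = 0.2). In summed FPKM the ratio was 3.506, 3.438 and 3.284 with 14-day-aged sperm, against 3.741, 3.597 and 3.627 with fresh sperm, with no overlap (log2 difference -0.10, two-sided exact permutation test, p = 0.1, the smallest possible). Relative to the complex I transcripts the 6 genes were thus lower after storage in every library in FPKM, and the groups overlapped in counts. ND3 (10575 to 10925) and ND4L (10994 to 11290) are short genes, so their FPKM rest on a small effective length. The weight of these 2 genes in the FPKM ratio was not tested. No share over all features was taken for ratios to the ND genes, so the separation in FPKM is not shown to be unusual.

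The proportions among COX1, COX2, COX3, CYTB and ATP6 varied less between libraries than their levels. Over the 6 libraries the SD of the log2 ratio of FPKM ran from 0.0362 for CYTB to COX1 to 0.151 for COX1 to COX2, while the SD of log2 FPKM of single genes ran from 0.243 for COX2 to 0.337 for CYTB. Count ratios of ATP8 to the other 5 genes, which rest on 10 to 23 ATP8 counts a library, had an SD of 0.276 to 0.321 on the log2 scale. The ratio of CYTB to COX1 was 0.340, 0.322 and 0.340 with 14-day-aged sperm, against 0.332, 0.343 and 0.344 with fresh sperm (log2 difference -0.023). The ratio of COX1 to COX3 was 0.893, 0.975 and 0.962 with 14-day-aged sperm, against 0.882, 0.853 and 1.03 with fresh sperm (log2 difference 0.039). In both pairs the groups overlapped, and leaving out single libraries moved the difference to either side of 0.

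COX2 took part in 3 of the 4 pairs whose ratios did not overlap between the groups. The ratio of COX1 to COX2 was 0.986, 0.930 and 0.919 in libraries 1, 2 and 3 from 14-day-aged sperm, against 0.777, 0.761 and 0.841 in those from fresh sperm. The mean was 0.945 ± 0.0360 after storage and 0.793 ± 0.0423 with fresh sperm (SD, n = 3 each), a log2 difference of 0.25 with no overlap. In estimated counts, with no correction for length, the same ratio was 3.07, 2.84 and 2.80 with 14-day-aged sperm, against 2.36, 2.35 and 2.60 with fresh sperm. The ratio of COX2 to COX3 was 0.906, 1.05 and 1.05 with 14-day-aged sperm, against 1.13, 1.12 and 1.22 with fresh sperm (log2 difference -0.21). The ratio of COX2 to CYTB was 2.98, 3.34 and 3.20 with 14-day-aged sperm, against 3.87, 3.83 and 3.46 with fresh sperm (log2 difference -0.23). COX2 was thus lower relative to COX1, COX3 and CYTB in all 3 libraries from 14-day-aged sperm than in any library from fresh sperm. The ratio of COX2 to ATP6 overlapped, at 2.49, 2.84 and 2.50 with 14-day-aged sperm and 2.71, 3.01 and 2.73 with fresh sperm (log2 difference -0.11, two-sided exact permutation test, p = 0.3). ATP6 to COX1 was the fourth pair with no overlap, at 0.407, 0.378 and 0.435 with 14-day-aged sperm and 0.474, 0.436 and 0.436 with fresh sperm (log2 difference -0.14), where the nearest libraries all but touched. In estimated counts this pair overlapped, at 0.129, 0.122 and 0.140 with 14-day-aged sperm and 0.154, 0.139 and 0.139 with fresh sperm (log2 difference -0.14, two-sided exact permutation test, p = 0.3). The 3 pairs of COX2 with COX1, COX3 and CYTB did not overlap on that scale either.

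These 4 of 10 pairs share members and are not independent. In FPKM each gave the smallest p that 3 against 3 libraries allow (two-sided exact permutation test, p = 0.1), which was 0.25 after adjustment over the 10 pairs, so no ratio passed the test. Ratios to COX3 did not overlap for 22.3% of the 26451 features with an FPKM above 0 in every library, and ratios to COX1 for 14% of them. No such share was taken for ratios to COX2 or to CYTB, so the pairs with COX2 are not shown to be unusual. With single libraries left out, the log2 difference of COX1 to COX2 ran from 0.22 to 0.30, and without both libraries numbered 3 it was 0.32. COX3 to CYTB, COX3 to ATP6 and CYTB to ATP6 overlapped between the groups, with log2 differences of -0.015, 0.10 and 0.12. Between ATP6 and ATP8, compared in estimated counts because ATP8 had no FPKM, the ratio was 1220, 856 and 878 with 14-day-aged sperm, against 899, 1196 and 1301 with fresh sperm (log2 difference -0.20, two-sided exact permutation test, p = 0.3).

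**Figure D3:**
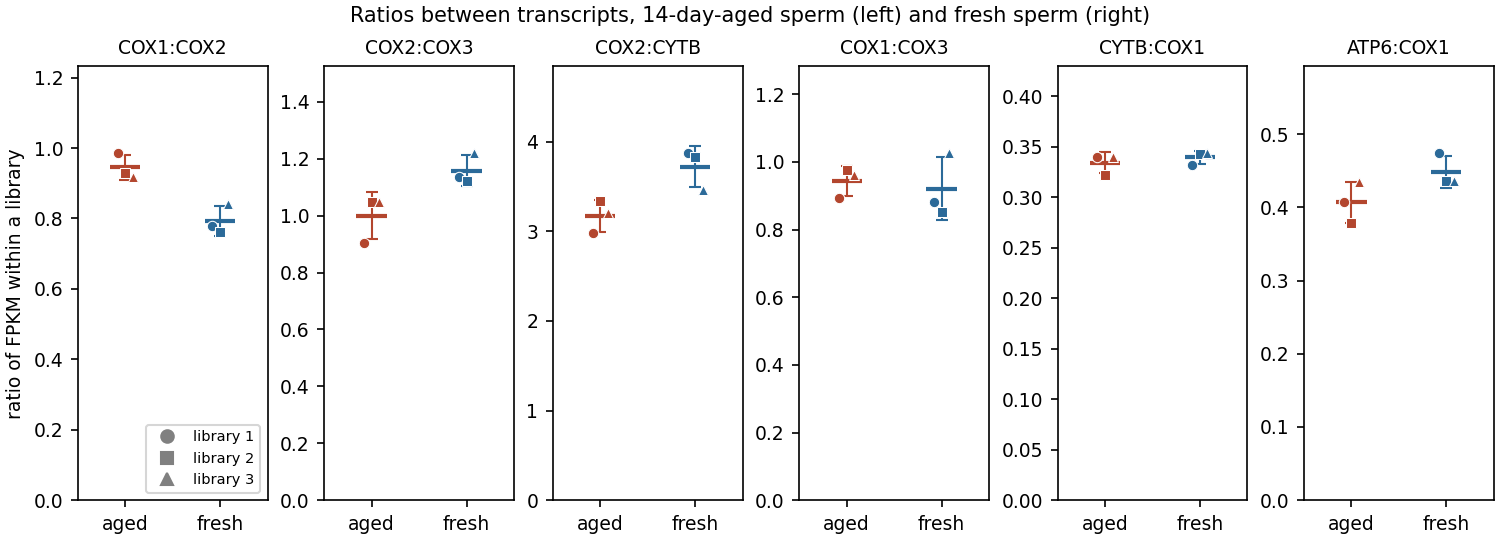
Ratios of FPKM between pairs of the genes in each library, with 14-day-aged sperm in red at the left of each panel and fresh sperm in blue; horizontal bars are means and error bars SD (n = 3 each), and symbols give the library number. The libraries separate for COX1 to COX2, with 0.919 to 0.986 after storage against 0.761 to 0.841 with fresh sperm, and overlap for CYTB to COX1.

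As parts of the counts of the 6 genes, COX1 took 47.0, 47.5 and 46.6% with 14-day-aged sperm, against 44.2, 44.2 and 46.6% with fresh sperm. COX2 took 15.3, 16.7 and 16.6% with 14-day-aged sperm, against 18.8, 18.8 and 18.0% with fresh sperm, with means of 16.2 ± 0.791% after storage and 18.5 ± 0.471% with fresh sperm (SD, n = 3 each). The COX2 part was lower in each library from 14-day-aged sperm than in any from fresh sperm, with a mean difference of -2.28 percentage points (two-sided exact permutation test, p = 0.1, the smallest possible). The COX2 part rests on the same counts as the ratios above, and no share over all features was taken for it. The other parts overlapped between the groups. COX3 took 19.5 to 20.9% after storage and 18.1 to 20.6% with fresh sperm, CYTB 10.4 to 10.8% after storage and 9.99 to 10.9% with fresh sperm, and ATP6 5.79 to 6.53% after storage and 6.13 to 6.80% with fresh sperm.

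The order of the levels depended on how length was treated. By mean FPKM over the 6 libraries the order was COX2 (6276), COX3 (5856), COX1 (5479), ATP6 (2333) and CYTB (1848). COX2 exceeded COX3 in 5 of 6 libraries and COX3 exceeded COX1 in 5 of 6, differences that did not pass a two-sided exact sign-flip test over the libraries (adjusted p = 0.156 and 0.125). COX1 exceeded ATP6 2.35-fold and ATP6 exceeded CYTB 1.27-fold in 6 of 6 libraries, with an adjusted p of 0.0625 each in the exact sign-flip test. Divided by full gene length in place of effective length, the order was COX1 (68.6 counts per base), COX3 (57.8), COX2 (57.4), CYTB (21.3) and ATP6 (21.2), and ATP8 had 0.0859. On that scale COX1 exceeded COX3 1.18-fold in 6 of 6 libraries, and COX3 over COX2 and CYTB over ATP6 were at ratios of 1.009 and 1.005. Both scales set the 3 COX transcripts above CYTB and ATP6 in every library, while the order within each of these 2 sets changed with the scale. By estimated count COX1, COX3 and COX2, in that order, lay above all other features in every library of both groups.

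**Figure D4:**
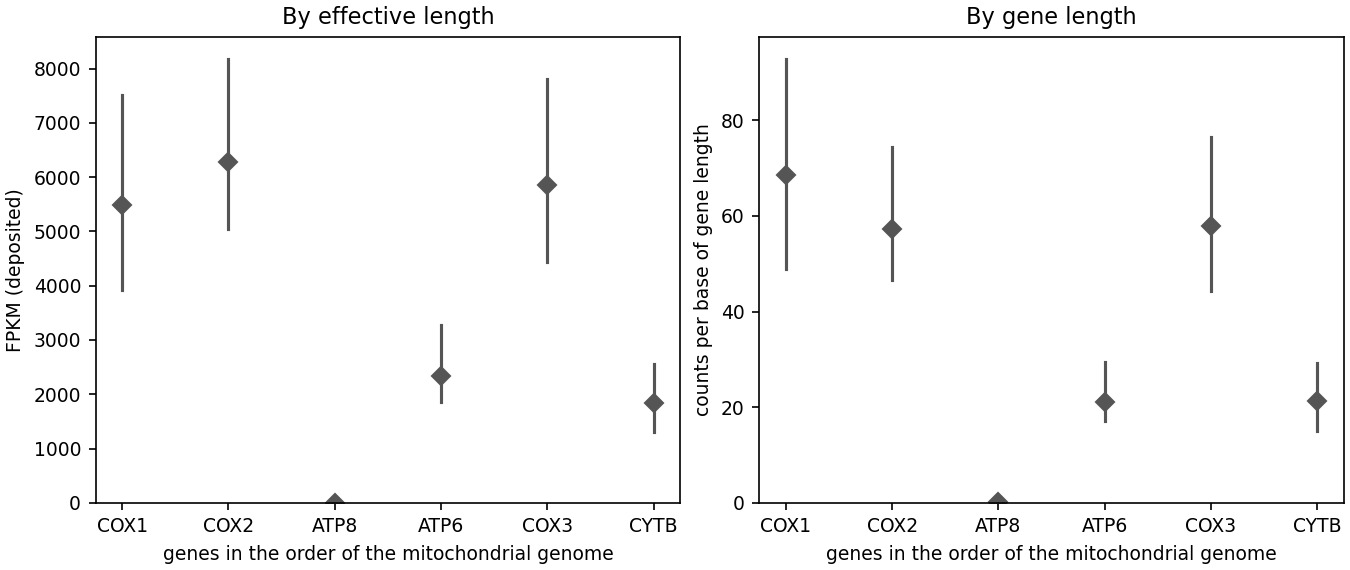
Mean levels of the genes over the 6 libraries on 2 scales that correct for length, FPKM (effective length) and estimated counts per base of gene length; diamonds are means and vertical lines run from the lowest to the highest library. COX2 is the highest on FPKM (6276) and COX1 on counts per base (68.6), and CYTB and ATP6 lie below the COX genes on both.

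COX1, COX2, COX3, CYTB and ATP6 differed more between libraries of 1 group than nearly all abundant genes other than the 13 protein-coding mitochondrial genes. ATP8 had too few counts for this comparison. The pooled within-group SD of log2 CPM was 0.304 for COX1, 0.289 for COX2, 0.240 for COX3, 0.329 for CYTB and 0.331 for ATP6. The median was 0.0861 over the 499 such other genes, assembled loci included, with a mean log2 CPM of at least 8. The 3 ND genes above the same level had a similar spread, at 0.282 for ND1, 0.365 for ND4 and 0.361 for ND5. Of the 499 genes 0.401% had a larger SD than COX1, COX2, CYTB or ATP6, and 0.601% a larger SD than COX3. They were LOC109060613, LOC109083323 and, for COX3, LOC109084524, which were looked up after the values were seen. The libraries numbered 3 moved with this spread: from libraries 1 and 2 of each group alone, the SD was 0.0964 for COX1, 0.0951 for COX2, 0.136 for COX3, 0.130 for CYTB and 0.0733 for ATP6, against a median of 0.0452, and 1.40% (COX3) to 20.4% (ATP6) of the 499 genes had a larger one.

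**Figure D5:**
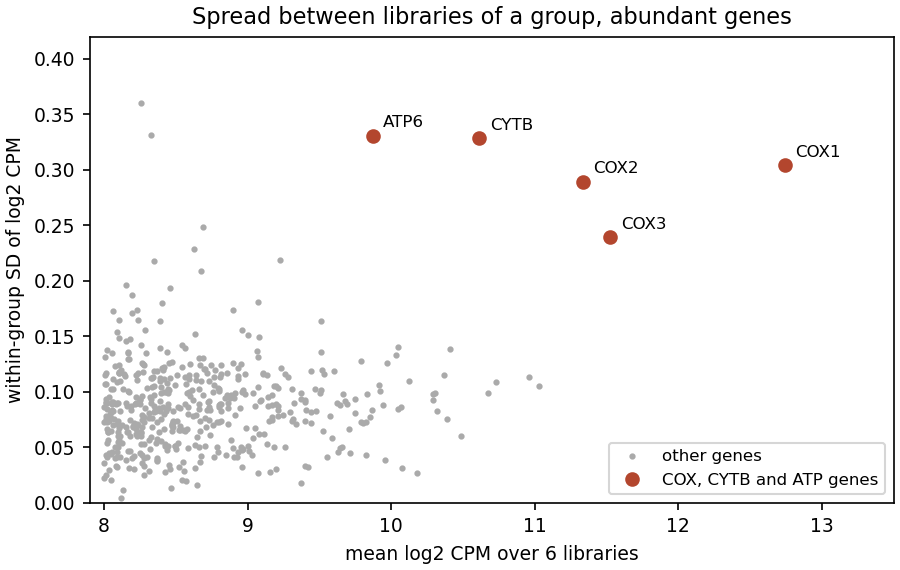
Pooled within-group SD of log2 CPM against mean log2 CPM over the 6 libraries, for COX1, COX2, COX3, CYTB and ATP6 (red). Grey points are genes other than the 13 protein-coding mitochondrial genes, with a mean log2 CPM of at least 8. The 5 mitochondrial genes lie at 0.240 to 0.331, while the median of the grey points is 0.0861.

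All 36 counts of the 6 genes were whole numbers as listed, as were all 78 of the 13 mitochondrial genes. For 4027 other features with a mean count of at least 1000, 43.6% of values were whole. A count that is not whole can arise where reads are divided between loci. How reads were assigned was not examined here, so whole counts do not show that no read had another possible origin.

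Likeness was taken among features other than the 13 protein-coding mitochondrial genes, and the genomic place of assembled loci was not looked up. Those whose profile over the 6 libraries was closest to the mean profile of the 6 genes were cldng, a member of the claudin family of tight-junction proteins, LOC109069964, LOC109084524, the assembled locus XLOC_018294 and LOC109096545. Their root mean square distances were 0.138, 0.138, 0.139, 0.141 and 0.145 on the log2 CPM scale, among 7523 genes compared, and the profile itself had a root mean square of 0.281. ND1, a complex I gene of the same genome, was closer, at 0.0716, and ND4 and ND4L were at 0.120 and 0.129. ND3 (0.149), ND5 (0.158) and ND2 (0.238) lay farther away than these 5 loci. ATP8, with 10 to 23 counts a library, entered the mean profile with the same weight as each of the other genes, so its counting error is part of these distances.

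No tested nuclear gene listed for its action on these complexes or transcripts passed the test, and many listed symbols were not tested. Of 7 lists with 50 tested genes in all, 0 genes passed an adjusted p of 0.05 in edgeR and 0 had an unadjusted p under 0.05, a level that 3.36% of all tested features reached. The median log2 fold changes of the lists with tested genes ran from -0.0094 to 0.050, against -0.00090 over all tested features. Of 37 listed symbols of nuclear complex V subunits, 8 were tested. The catalytic subunit gene atp5f1b averaged 57.8 ± 2.22 CPM with 14-day-aged sperm and 61.3 ± 4.11 CPM with fresh sperm (SD, n = 3 each), a log2 fold change of -0.084. Those of atp5f1c, the central shaft, and atp5pb, in the outer stalk, were -0.075 and 0.078. Symbols of the nuclear subunits of complexes III and IV had no count under those names and were not analysed here. Of 40 listed symbols of assembly factors, 4 were tested. Among these 4, ttc19, which acts on complex III, had a log2 fold change of -0.17, and cmc1 and cmc2, which act on complex IV, had 0.037 and 0.090.

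Of 26 listed symbols for maintenance and transcription of mitochondrial DNA, 13 were tested. polrmt, the mitochondrial RNA polymerase, averaged 31.2 ± 3.61 CPM with 14-day-aged sperm and 28.5 ± 2.84 CPM with fresh sperm, a log2 fold change of 0.13 (standard error 0.113). The other named members were at 0.13 for ssbp1, which binds single-stranded mitochondrial DNA, 0.051 for mterf2, -0.048 for the nuclease gene endog and -0.12 for the protease gene lonp1. Of 31 listed symbols for mitochondrial RNA processing and decay, 12 were tested. elac2, which cuts transfer RNAs at their 3′ end, averaged 59.1 ± 10.2 CPM with 14-day-aged sperm and 57.0 ± 5.28 CPM with fresh sperm, a log2 fold change of 0.051. hsd17b10, part of the enzyme that cuts the 5′ end, was at 0.050, pde12, which removes poly(A) tails, at -0.048, rpusd4 at -0.011 and mrm1 at 0.019. Of 13 tested genes of mitophagy and mitochondrial dynamics (36 symbols listed), mief2 was at -0.065, the fusion gene mfn2 at -0.0059 and phb at 0.044.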

How the data were processed

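The 6 libraries were grouped by their labels into 3 from 14-day-aged and 3 from fresh sperm. By their methods the authors selected poly(A) RNA, sequenced it on DNBSEQ and mapped it with HISAT2. Transcripts from StringTie were merged by Cuffmerge, and Bowtie2 aligned the reads to this set (versions not given in the sources used here). The deposited values are estimated counts, whose labels name RSEM, and FPKM per gene. The deposited TPM, which rescale the FPKM to a fixed sum per library, were not used. The deposited comparison table (p-values and log2 fold changes of the authors, from DESeq2) was not used. After rounding, counts were fitted in R 4.3.3 by the quasi-likelihood method of edgeR 4.0.16, with filterByExpr, TMM factors and Benjamini-Hochberg adjustment over 27342 features at a threshold of 0.05. The standard error is the log2 fold change divided by the square root of F. log2 CPM used a prior count of 2. Total counts of 14993459 to 15632387 per library left counting error small for COX1, COX2, COX3, CYTB and ATP6, but not for ATP8. Single values used two-sided exact permutation or sign-flip tests.

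The genes and lists were chosen with earlier results of these data known. Ratios were planned over 15 pairs of FPKM, but ATP8 was listed at 0 FPKM, so 10 pairs and 4 neighbours in the order were tested and ATP8 was compared in counts. The pairs named by plan were 6 chosen by role plus the one of largest difference among the rest. The other FPKM pairs are given beside them. List genes were the 3 of highest CPM, or 5 for the mitochondrial DNA and RNA lists. Likeness was taken among features other than the 13 protein-coding mitochondrial genes, with a mean log2 CPM of at least 5. Alternatives were other scaling, filters and features, DESeq2 1.42.0, limma 3.58.1 on voom values or log2 FPKM with a pseudocount of 1 or 0.1, a replicate block, other length scales and each library left out. Leaving out both libraries numbered 3 was added after seeing the data. The edgeR fit was checked on simulated counts with known changes, and the permutation and sign-flip tests on small sets of values with known answers. Python 3.11.15 with scipy 1.17.1, numpy 2.4.6, pandas 2.3.3 and matplotlib 3.10.9 gave the remaining tables and plots.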

Additional observations from a re-analysis of the deposited data

How the results depend on the processing

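None of the 6 genes passed an adjusted p of 0.05 in edgeR, limma or DESeq2 under any alternative that tested it. ATP8, at 0 FPKM, was not tested by limma on log2 FPKM. The lowest adjusted p was 0.594 in edgeR (COX1, without both libraries numbered 3, an alternative chosen after seeing the data). With single libraries left out, log2 fold changes ran from 0.20 to 0.58 for COX1, from -0.067 to 0.28 for COX2, from 0.19 to 0.47 for COX3, from 0.16 to 0.57 for CYTB, from 0.012 to 0.43 for ATP6 and from 0.16 to 0.71 for ATP8. The log2 difference between the groups in the ratio of COX1 to COX3 then ran from -0.013 to 0.12. For CYTB to COX1 this difference ran from -0.039 to 0.0029. The count of features called among all tested was 4, against 1 with at least 10 counts in every library, 2 with annotated genes alone, 17 with limma voom, 7 with limma on log2(FPKM + 0.1), 58 with DESeq2, 7 without both libraries numbered 3, and 3 to 9 with single libraries left out (9 without fresh sperm library 3). The cause of these shifts was not tested.

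On counts per base of gene length the log2 level of COX2 over COX3 was -0.0066, of COX3 over COX1 -0.24 and of ATP6 over CYTB -0.0037. With no length correction these were -0.19, -1.22 and -0.74, and COX1 over ATP6 was 2.87 (exact sign-flip test, adjusted p = 0.0313). These reversals follow from the lengths used.

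Between same-numbered libraries, deviations from the group means had correlations of -0.00237, 0.0375 and 0.0886 across all tested features and of 0.101, 0.103 and 0.272 across the 15300 with a mean log2 CPM above 3, so the first set lay under the limit of 0.1 for taking the numbers as pairs and the second above it. Since the male behind each library is not stated, whether the numbers pair the libraries was not settled. Within each number the CPM of COX1, COX2, COX3, CYTB and ATP6 was higher with 14-day-aged sperm, in 3 of 3, and that of ATP8 in 2 of 3. These genes come from the same libraries and the same genome. No share over all features was taken for this count, so it is not shown to be unusual. For COX2 in library 2 the CPM was 2408 against 2399 with fresh sperm, and in FPKM it was lower after storage, at 5802 against 5881. In edgeR with a replicate block, 0 features were called (599 were higher and 970 lower after storage at an unadjusted p under 0.05), and the 6 genes had log2 fold changes of 0.39 (COX1), 0.13 (COX2), 0.35 (COX3), 0.36 (CYTB), 0.24 (ATP6) and 0.45 (ATP8), with adjusted p from 0.650 to 0.906. With the block the ratio of COX1 to COX2 differed by 0.25 (log2, exact sign-flip test, p = 0.25, the smallest possible).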
